A study of Mus musculus with 16 samples.

Results

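The genes described here are 10 genes of the unfolded protein response of the endoplasmic reticulum (ER): Hspa5, Xbp1, Ern1, Dnajb9, Herpud1, Sdf2l1, Calr, Pdia4, Hsp90b1 and Creld2. They were chosen by symbol for their roles, as ER chaperones and as the branch of Ern1 and Xbp1. All 10 were found among the 41079 genes of the count table, and all 10 were among the 16742 genes that passed the filter on low counts. The study concerned glucagon receptor signaling in the liver and its bearing on lifespan, and sequenced poly-A RNA of whole liver as paired reads to look for mechanisms behind differences in survival. Each sex was represented by 4 controls (CRE-) and 4 knockouts (LKO), all on the C57BL/6J background, fed chow and aged 20 to 22 months. Every mouse, control or LKO, carried loxP sites around part of the glucagon receptor gene Gcgr. LKO mice also carried a Cre transgene under the Albumin promoter, which is active in hepatocytes from around birth, so the deletion is long-standing and is directed at hepatocytes rather than other liver cells. CRE- controls lacked the transgene and kept the receptor. Gene counts added up to 33268424 in the shallowest library and 56488920 in the deepest, and the lowest count of a member in any library was 344. Levels are given as CPM, reads of a gene scaled to a common library size with TMM factors, with mice in the order of their replicate numbers. A gene was called where its edgeR p, adjusted for all genes tested by the method of Benjamini and Hochberg, was under 0.05. The standard error (SE) of a log2 fold change was derived from that test, as its absolute value divided by the square root of F.

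The unfolded protein response matches the folding capacity of the ER to the load of secretory and membrane proteins that enter it. Its sensors are IRE1, which Ern1 encodes, PERK and ATF6. Active IRE1 splices Xbp1 mRNA into the form that encodes a strong transcription factor, ATF6 is released by cleavage in the Golgi, and PERK slows translation while favouring that of ATF4. Hepatocytes hold a large ER because they secrete most plasma proteins, and the response is known there for its part in secretion and lipid metabolism. Gene counts do not separate spliced from unspliced Xbp1 mRNA, so the splicing itself was not measured.

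Gcgr (chr11:120420011-120429815 of GRCm39, plus strand) was examined first. It was at 190.4, 193, 127 and 189.6 CPM in male CRE- mice 1 to 4 and 117, 136, 129.9 and 160.3 CPM in male LKO mice 1 to 4. Male groups overlapped, with 1 LKO mouse below the lowest control, and the log2 fold change was -0.37 (SE 0.24, edgeR adjusted p = 0.671). In females it was at 162, 208, 201 and 179.99 CPM in female CRE- mice 1 to 4 and 48.8, 132, 119 and 93.6 CPM in female LKO mice 1 to 4. Every female LKO mouse lay below every female control, and the log2 fold change was -0.93 (SE 0.25, edgeR adjusted p = 0.0443). Reads from exons that Cre leaves in place, and from cells other than hepatocytes, enter this count too, so residual reads do not measure intact receptor. The female call was lost in 13 of the 16 fits that left out 1 library (adjusted p 0.0225 to 0.136 over the 16), and was kept only without male CRE- mouse 2, male CRE- mouse 3 or female LKO mouse 2. It was also lost with each sex alone, upper-quartile factors, either other filter and without the acinar pair of libraries described below. In bulk RNA, fewer cells of a type and less RNA per cell cannot be told apart, which holds for every value below.

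No member was called in either sex. In males 0 of 10 members were called, against 0.454% of all genes tested (76 of 16742, 37 higher and 39 lower). In females 0 of 10 members were called, against 4.24% of all genes tested (710 of 16742, 350 higher and 360 lower). At such shares few or no calls among 10 genes are the background, so the counts of 0 say little by themselves. At an unadjusted p under 0.05 from the same edgeR test there was 1 member in males, Dnajb9, and 0 in females, against 1595 of 16742 genes in males (802 higher, 793 lower) and 3584 of 16742 in females (2054 higher, 1530 lower). The male count of members was 2 without male CRE- mouse 2, female CRE- mouse 3 or female LKO mouse 1, with each sex alone, with limma-voom and without the acinar pair of libraries described below, and the female count was 1 without female LKO mouse 1 or 4 and with limma-voom. With the replicate block described below the male count of members was 3. Counts at an unadjusted p in the lists below are to be read against those over all genes. DESeq2 and limma-voom also called 0 members in each sex. The CPM of LKO and CRE- mice overlapped for all 10 members in both sexes, where 6.49% of all genes in males and 11.6% in females did not overlap. The median log2 fold change of the members was 0.29 in males, with 6 positive and 4 negative, and -0.14 in females, with 4 positive and 6 negative. Over all genes tested the median was -0.01 in males and 0.04 in females. The medians of the members depended on single mice: the male median was 0.17 without male LKO mouse 3, and the female median was -0.05 and -0.26 without female CRE- mouse 1 and 3, -0.31 and -0.01 without female LKO mouse 1 and 2, and -0.26 with limma-voom. The counts over all genes depended on single libraries. In males the count was 28, 32, 26 and 49 without male CRE- mouse 1, 2, 3 and 4, 43, 41, 39 and 40 without male LKO mouse 1, 2, 3 and 4, and 50 without female CRE- mouse 2. In females it was 385, 87, 122 and 110 without female CRE- mouse 1, 2, 3 and 4, 237, 1310 and 404 without female LKO mouse 1, 2 and 4, and 428 and 427 without male LKO mouse 2 and 4. The members were at 0 calls in each of these fits.

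Compared per length, as CPM per kb of exons, the members spanned a wide range of levels. In male CRE- mice the order was Calr at 449.9 ± 45.5 CPM per kb (SD, n = 4), Hsp90b1 at 315 ± 45.7, Hspa5 at 230.4 ± 42.0, Herpud1 at 159 ± 35.5, Pdia4 at 97.5 ± 27.4, Xbp1 at 88.1 ± 7.17, Sdf2l1 at 29.9 ± 9.42, Dnajb9 at 21.4 ± 8.76, Creld2 at 20.5 ± 5.97 and Ern1 at 8.76 ± 3.10. The mice of neighbouring genes overlapped for Hsp90b1 and Hspa5, Hspa5 and Herpud1, Pdia4 and Xbp1, Sdf2l1 and Dnajb9, and Dnajb9 and Creld2, and did not overlap at the other steps. Calr was highest and Ern1 lowest in each of the 4 groups, and the places between moved. Herpud1 was above Pdia4 in both male groups and in female LKO mice, and below it in female CRE- mice, at 111 ± 41.0 and 115 ± 27.5 CPM per kb (SD, n = 4). The abundant lumenal chaperones thus stood far above the sensor IRE1 in transcript level. Together the members took between 0.237% (female LKO mouse 2) and 0.462% (female CRE- mouse 1) of the reads of a library. Across the 16 mice the highest value was 7.42 times the lowest for Sdf2l1, 4.71 times for Hspa5, 4.46 times for Creld2, 4.41 times for Pdia4 and 2.09 times for Xbp1, the smallest of the 10.

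Ern1 (chr11:106285474-106378701, minus strand) encodes IRE1α, the kinase and ribonuclease that senses unfolded protein. It was at 79.3, 50.7, 80.1 and 36.1 CPM in male CRE- mice 1 to 4 and 67.4, 94.6, 81.7 and 72.8 CPM in male LKO mice 1 to 4. The controls spread widely and 2 LKO mice lay above the highest of them, with a log2 fold change of 0.36 (SE 0.24, edgeR adjusted p = 0.673). Females had 48.1, 52.9, 56.8 and 30.3 CPM in female CRE- mice 1 to 4 and 46.6, 58.2, 55.5 and 47.2 CPM in female LKO mice 1 to 4. Female LKO mice lay close together inside the range of the controls apart from mouse 2, just above it, and the log2 fold change was 0.14 (SE 0.24, edgeR adjusted p = 0.792).

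Xbp1 (chr11:5470641-5475993, plus strand) encodes the transcription factor whose mRNA IRE1 splices. Its level was 176, 209.6, 195 and 211 CPM in male CRE- mice 1 to 4 and 204, 257, 236 and 269 CPM in male LKO mice 1 to 4. Male LKO mice 2, 3 and 4 lay above every male control and mouse 1 lay among them, and the log2 fold change was 0.29 (SE 0.22, edgeR adjusted p = 0.722). In females the level was 300.02, 180.04, 163 and 205 CPM in female CRE- mice 1 to 4 and 275, 144, 244 and 284 CPM in female LKO mice 1 to 4. Female control mouse 1 was the highest of the 16 mice and female LKO mouse 2 the lowest, so the female groups overlapped over most of their range, with a log2 fold change of 0.16 (SE 0.22, edgeR adjusted p = 0.737). The group means in males were 198 ± 16.1 and 241 ± 28.7 CPM, and in females 212 ± 61.2 and 237 ± 64.3 CPM (SD, n = 4).

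Hspa5 (chr2:34662102-34666541, plus strand) encodes BiP, the Hsp70 of the ER lumen, which binds nascent chains and holds the sensors inactive. It was at 463, 593, 729.5 and 625 CPM in male CRE- mice 1 to 4 and 520.3, 738, 956 and 745 CPM in male LKO mice 1 to 4. In males 3 LKO mice lay above the highest control and mouse 1 lay near the bottom of the control range, with a log2 fold change of 0.30 (SE 0.33, edgeR adjusted p = 0.813). The female mice were at 1399, 969, 570.1 and 849.9 CPM in female CRE- mice 1 to 4 and 854, 297, 625 and 1038 CPM in female LKO mice 1 to 4. The females spread more than the males, from LKO mouse 2, the lowest of all 16, to control mouse 1, the highest, and the log2 fold change was -0.43 (SE 0.33, edgeR adjusted p = 0.501). Over the alternatives it ranged from -0.68 without female LKO mouse 4 to -0.18 without female LKO mouse 2. The male value ranged from 0.15 without male LKO mouse 3 to 0.44 with limma-voom. Rabepk overlaps Hspa5 on the opposite strand, and the reads were counted by strand.

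Hsp90b1 (chr10:86526705-86541308, minus strand) encodes GRP94, the Hsp90 of the ER. Its level was 761, 827, 1052 and 838 CPM in male CRE- mice 1 to 4 and 512, 753, 801 and 752 CPM in male LKO mice 1 to 4. Male LKO mice 1, 2 and 4 lay below the lowest control, mouse 1 far below, while mouse 3 lay inside the control range, and the log2 fold change was -0.30 (SE 0.20, edgeR adjusted p = 0.673). In females it was at 1242, 901, 899 and 873 CPM in female CRE- mice 1 to 4 and 1002, 652, 694 and 794 CPM in female LKO mice 1 to 4. Here too 3 of 4 LKO mice were under the lowest control, mouse 1 being above most controls, and the log2 fold change was -0.32 (SE 0.20, edgeR adjusted p = 0.4). The means were 869 ± 126 and 705 ± 130.3 CPM in males, and 979 ± 176 and 785 ± 156 CPM in females (SD, n = 4). Hsp90b1 had the lowest adjusted p among the members in females, and it ranged from 0.0985 with limma-voom to 0.671 over the alternatives.

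Dnajb9 (chr12:44252680-44256851, minus strand) encodes ERdj4, a J-domain partner of BiP that also represses IRE1 and is a target of spliced XBP1. It was at 28.5, 64.1, 34.996 and 32.2 CPM in male CRE- mice 1 to 4 and 63.8, 80.2, 81.3 and 57.9 CPM in male LKO mice 1 to 4. Among male controls mouse 2 stood well above the others and reached the level of LKO mouse 1, and without it every male LKO mouse lay above every control. The means were 40.0 ± 16.3 and 70.8 ± 11.7 CPM (SD, n = 4), and the log2 fold change was 0.83 (SE 0.27, edgeR adjusted p = 0.264), with an unadjusted p of 0.0067 in the edgeR fit. This was the lowest p of any member in any comparison, and it did not pass the adjustment over all genes. Without male CRE- mouse 2 the log2 fold change was 1.15 (edgeR adjusted p = 0.0759), and over all alternatives the adjusted p was 0.0759 to 0.551. Female mice had 58.7, 75.5, 41.7 and 40.5 CPM in female CRE- mice 1 to 4 and 38.5, 44.98, 56.6 and 64.04 CPM in female LKO mice 1 to 4. Female groups were mixed, with the highest mouse a control and the lowest an LKO mouse, and the log2 fold change was -0.09 (SE 0.26, edgeR adjusted p = 0.895).

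Sdf2l1 (chr16:16948002-16950247, minus strand) encodes a lumenal protein that acts with ERdj proteins and BiP. It ranged from 21.4 to 43.0 CPM in male controls and from 8.85 to 40.8 CPM in male LKO mice, of which 2 lay below the lowest control. In females it ranged from 22.4 to 53.8 CPM in controls and from 19.6 to 65.7 CPM in LKO mice, which lay on both sides of the control range. The log2 fold change was -0.52 (SE 0.45, edgeR adjusted p = 0.755) in males and 0.11 (SE 0.45, edgeR adjusted p = 0.925) in females, with the largest standard errors of the 10 members.

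Calr (chr8:85568717-85573560, minus strand) encodes calreticulin, the lectin chaperone that holds glycoproteins and ER calcium. It ranged from 776 to 989 CPM in male controls and from 456 to 979.5 CPM in male LKO mice, of which only mouse 1 was below the controls. In females it ranged from 857 to 1293 CPM in controls and from 664 to 1083 CPM in LKO mice, of which mice 2 and 3 were below the controls. The log2 fold change was -0.13 (SE 0.25, edgeR adjusted p = 0.895) in males and -0.27 (SE 0.25, edgeR adjusted p = 0.577) in females.

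Pdia4 (chr6:47773075-47790446, minus strand) encodes a protein disulfide isomerase of the ER. It was at 194, 226, 361 and 255 CPM in male CRE- mice 1 to 4 and 113, 185, 296 and 209.8 CPM in male LKO mice 1 to 4. In males the groups overlapped, with LKO mice 1 and 2 below the lowest control, and the log2 fold change was -0.36 (SE 0.36, edgeR adjusted p = 0.784). The values of females were 391, 277, 220.2 and 333 CPM in female CRE- mice 1 to 4 and 500.5, 140.1, 177 and 246 CPM in female LKO mice 1 to 4. Female LKO mouse 1 was the highest of the 16 mice, whereas LKO mice 2 and 3 were below every female control, and the log2 fold change was -0.20 (SE 0.36, edgeR adjusted p = 0.807). Without female LKO mouse 1 it was -0.68 (edgeR adjusted p = 0.308), and over all alternatives the adjusted p was 0.181 to 0.991. Mir704 lies within Pdia4 on the same strand.

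Creld2 (chr15:88703849-88710884, plus strand) encodes an ER protein with disulfide isomerase activity that is released under ER stress. It was at 25.2, 25.2, 21.5 and 39.8 CPM in male CRE- mice 1 to 4 and 18.8, 32.2, 47.6 and 44.3 CPM in male LKO mice 1 to 4. Male LKO mice lay on both sides of the controls, with 2 above and 1 below, and the log2 fold change was 0.35 (SE 0.40, edgeR adjusted p = 0.813). Female values were 77.4, 39.9, 20.998 and 53.3 CPM in female CRE- mice 1 to 4 and 29.03, 17.4, 32.4 and 58.6 CPM in female LKO mice 1 to 4. The control with the highest value, mouse 1, was also the highest for Hspa5 and Xbp1, and the log2 fold change was -0.48 (SE 0.40, edgeR adjusted p = 0.533). This female value ranged from -0.87 without female LKO mouse 4 to -0.15 without female CRE- mouse 1 over the alternatives. The male value ranged from 0.18 without male LKO mouse 3 to 0.58 without male CRE- mouse 4.

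Herpud1 (chr8:95113057-95121999, plus strand) encodes a membrane protein that assembles the machinery of ER-associated degradation. It was at 282, 432, 291 and 289 CPM in male CRE- mice 1 to 4 and 493, 552, 369 and 427 CPM in male LKO mice 1 to 4. Of the male controls, 3 lay together and mouse 2 stood apart at the level of LKO mouse 4, while LKO mice 1 and 2 exceeded every control. The means were 324 ± 72.4 and 460.04 ± 79.4 CPM (SD, n = 4), and the log2 fold change was 0.51 (SE 0.27, edgeR adjusted p = 0.576). In females it was at 155, 187, 346 and 221 CPM in female CRE- mice 1 to 4 and 155, 302, 317 and 276 CPM in female LKO mice 1 to 4. The lowest mouse of each female group was at 155 CPM and the highest at 346 CPM in controls and 317 CPM in LKO mice, so the ranges nearly coincided, and the log2 fold change was 0.21 (SE 0.27, edgeR adjusted p = 0.706). Over the alternatives it ranged from 0.0635 without female CRE- mouse 1 to 0.49 without female CRE- mouse 3.

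**Figure D1:**
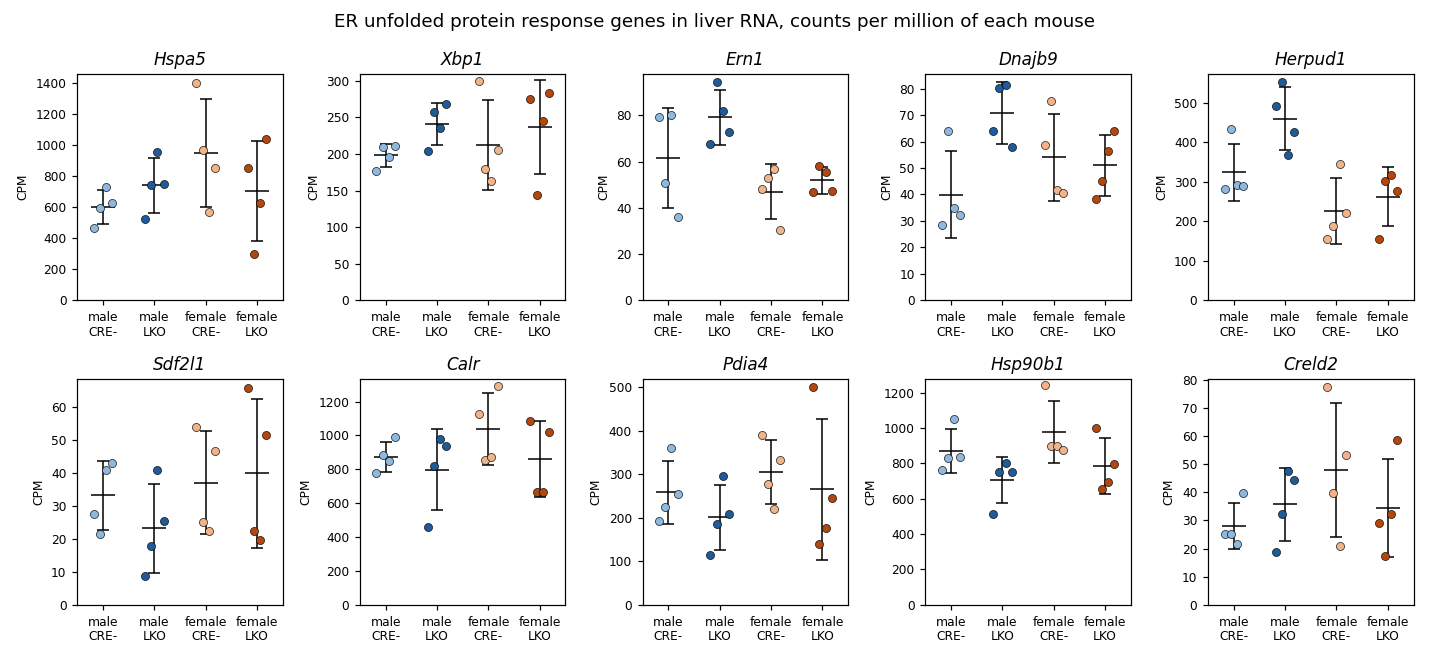
CPM of the 10 members (vertical axes, from 0) in each of the 16 mice, by group along the horizontal axes, with points for mice and bars for the mean and SD of 4 mice. The groups of each sex overlap in every panel, and Hspa5 spans 297 to 1399 CPM in females against 463 to 956 CPM in males.

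Whether the difference between LKO and CRE- mice differed by sex was tested as the female minus the male log2 fold change. No member was called by edgeR (0 of 10), nor was any gene of the 16742 tested (0%). Without adjustment 2672 genes had p under 0.05, of which 1 was a member, Dnajb9. The member count was 0 without male CRE- mouse 1, 3 or 4, or male LKO mouse 2 or 3. It was also 0 without female CRE- mouse 2 or female LKO mouse 1, and 2 without female LKO mouse 4. DESeq2 called 371 genes and limma-voom 29, among them 0 members, with 1 and 2 members at an unadjusted p under 0.05. For Dnajb9 the difference was -0.91 (SE 0.37, edgeR adjusted p = 0.267), for Creld2 -0.83 (SE 0.56, edgeR adjusted p = 0.451) and for Hspa5 -0.73 (SE 0.47, edgeR adjusted p = 0.437). These were positive in males and negative in females, but their standard errors were large and none passed. The median of the members was -0.18, with 2 positive and 8 negative, and that of all genes was 0.04. The median was -0.11 without male LKO mouse 2 and -0.34 with limma-voom. Hsp90b1 was negative in both sexes, with a difference of -0.01 (SE 0.29, edgeR adjusted p = 0.986) that was 0.01 with DESeq2, -0.25 with limma-voom and -0.13 to 0.12 with 1 library left out. The count over all genes was 2 without male CRE- mouse 2, 14 without male LKO mouse 1, and 10, 14 and 2 without female LKO mouse 2, 3 and 4, and 0 without any other library, and it was 12 with no filter.

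The level in controls was then compared between the sexes, a comparison that shares its libraries with those above. Of the members 0 of 10 were called by edgeR, against 0.92% of all genes (154 of 16742, 69 higher and 85 lower in females), and 0 had an unadjusted p under 0.05, against 2121 of 16742 genes. That unadjusted count of members was 3 without female CRE- mouse 3 and 2 without male CRE- mouse 4. It was 1 without male CRE- mouse 2, female LKO mouse 1 or 2, or the acinar pair of libraries described below. DESeq2 called 509 genes and limma-voom 329, among them 0 members, with 0 and 1 at an unadjusted p under 0.05. Female controls had a higher mean for 8 of 10 members, and the median log2 difference, female minus male, was 0.20 against -0.01 over all genes. This median was 0.11 without male CRE- mouse 1, and 0.07, 0.33 and 0.12 without female CRE- mouse 1, 3 and 4. The differences with the smallest p were 0.78 for Creld2 (SE 0.40, edgeR adjusted p = 0.428), 0.65 for Hspa5 (SE 0.33, edgeR adjusted p = 0.43) and -0.51 for Herpud1 (SE 0.27, edgeR adjusted p = 0.44). Herpud1 and Ern1 were the members with a lower mean in female controls. The count over all genes was 68 and 74 without male CRE- mouse 1 and 3, and 82, 71, 90 and 71 without female CRE- mouse 1, 2, 3 and 4. It was also 78 with 10 counts in every library and 67 without the acinar pair.

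Members varied together within groups in part. The mean log2 difference of the 10 members from the sex-matched control mean was -0.38, 0.19, 0.42 and 0.21 in male LKO mice 1 to 4, and 0.07, -0.57, -0.24 and 0.18 in female LKO mice 1 to 4. The controls spread as well, with -0.17, 0.02, 0.13 and 0.02 in males and 0.33, -0.06, -0.28 and 0.01 in females. Single mice were thus high or low for most members, such as male LKO mouse 3, above the control mean for 9 of 10, female CRE- mouse 1, above for 9 of 10, and female LKO mouse 2, above for 2 of 10. Over the 45 pairs of members, Pearson's r of log2 CPM across the 16 libraries had a median of 0.37 and a range of -0.72 to 0.90. Pdia4 with Hsp90b1 had an r of 0.90, Sdf2l1 with Pdia4 0.88, Sdf2l1 with Calr 0.86 and Hspa5 with Creld2 0.84. Herpud1 and Ern1 had a negative r with each of these, Herpud1 with an r of -0.72 with Sdf2l1, -0.72 with Pdia4 and -0.68 with Hsp90b1, and Ern1 with -0.48 with Calr and -0.44 with Sdf2l1. Herpud1 was positive with Ern1 (0.56) and Dnajb9 (0.32). On deviations from the group means these were 0.11 and 0.19, and Ern1 with Hsp90b1 went from -0.27 to 0.14. Herpud1 with Sdf2l1, Pdia4 and Hsp90b1 was then at -0.70, -0.73 and -0.59. These r are descriptions over libraries of 4 groups that share a scaling, and the deviations from the group means gave a median of 0.26 and a range of -0.73 to 0.90.

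The genes most alike in pattern to Hspa5 over the 16 libraries were Hyou1 (r = 0.95), a large Hsp70 relative of the ER that exchanges nucleotide on BiP, Ubfd1 (0.92), Sec23b (0.90), a coat protein of vesicles that leave the ER, Ints3 (0.88), Gmppb (0.87), which makes GDP-mannose for glycosylation, and Srp68 (0.87), a protein of the signal recognition particle. Creld2 was the highest member, at rank 13 of all genes tested, followed by Xbp1 at rank 54 (r = 0.74). For Xbp1 they were Tmem214 (r = 0.81), Gtf2f1 (0.80), Prpf31 (0.80), Arfgap3 (0.79), a regulator of transport between Golgi and ER, Gm9776 (0.78) and Serpina3a (0.78), with Hspa5 at rank 17. On deviations from the group means, 5 of the 6 genes for Hspa5 stayed among the first 6, but only 1 of 6, Tmem214, for Xbp1, where Hspa5 came to rank 4 (r = 0.89). The libraries share depth and scaling, and these r are given without a test.

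Other chaperones and folding enzymes of the ER, 24 genes tested, had 1 gene called higher in males, and 0 called in females. The 1 was Ero1b, an oxidase that recharges protein disulfide isomerases, at 60.8, 59.9, 66.7 and 50.03 CPM in male controls and 81.8, 116, 168 and 124 CPM in male LKO mice. All 4 male LKO mice were above all 4 controls, and Ero1b rose by a log2 fold change of 1.05 (SE 0.21, edgeR adjusted p = 0.036). In females its values were 43.6 to 60.6 CPM in controls and 43.1 to 62.7 CPM in LKO mice, and the sex difference of -1.05 (SE 0.29, edgeR adjusted p = 0.173) was not called. For the sex difference edgeR called 0 of the 24, 5 were lower at an unadjusted p under 0.05 (1119 of 16742 genes were), DESeq2 called 1 and limma-voom 0. The call was lost in 9 of 16 fits that left out 1 library (adjusted p 0.0126 to 0.103 over the 16): any male control, male LKO mouse 2, 3 or 4, or female CRE- mouse 2 or 3. It was also lost with each sex alone. The list's median was 0.10 in males (0.03 to 0.12 with 1 library left out), with 13 of 24 positive, and -0.13 in females (-0.24 to -0.02), with 5 of 24 positive. In males 3 genes, Ero1b, Creld1 and Cnpy2, were higher at an unadjusted p under 0.05 in edgeR and 0 were lower. In females 3 genes, Erp44, Sil1 and P4hb, were lower at an unadjusted p under 0.05 in edgeR, DESeq2 called 1 and limma-voom 0. P4hb, the most abundant per length, is the classical disulfide isomerase and had a female log2 fold change of -0.44 (SE 0.19, edgeR adjusted p = 0.179). Hyou1 followed Hspa5, at 83.1 to 267 CPM in male LKO mice and 59.0 to 274 CPM in female LKO mice.

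Of the 19 genes of ER-associated degradation, which returns misfolded proteins to the cytosol, 0 were called in males and 1 was lower in females. In males 1 gene, Selenos, had an unadjusted p under 0.05 in edgeR, and DESeq2 and limma-voom called 0. The 1 in females was Derl2, a component of the retrotranslocation complex, at 118, 134, 139 and 158 CPM in controls and 56.7, 90.95, 92.6 and 91.03 CPM in LKO mice, a complete separation. It fell, with a log2 fold change of -0.73 (SE 0.18, edgeR adjusted p = 0.0367). The call was lost in 9 of 16 fits that left out 1 library (adjusted p 0.032 to 0.101 over the 16): male CRE- mouse 1, male LKO mouse 2, 3 or 4, female CRE- mouse 2, 3 or 4, or female LKO mouse 1 or 4. It was also lost with each sex alone, upper-quartile factors and no filter. Without male LKO mouse 1 the count was 2, and DESeq2 and limma-voom each called 2. The list's median was 0.04 in males and -0.04 in females, and was of either sign in both sexes with 1 library left out (-0.0023 to 0.11 and -0.12 to 0.01). Edem1, a lectin that hands glycoproteins to degradation, was the other of 2 genes lower in females at an unadjusted p under 0.05, with every LKO mouse below every control and a log2 fold change of -0.67 (SE 0.19, edgeR adjusted p = 0.0594). Vcp, the ATPase that extracts substrates and the most abundant of the list per length, had a female log2 fold change of -0.34 (SE 0.18, edgeR adjusted p = 0.295).

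Of 20 genes of transport from ER to Golgi, 0 were called in males (2 at an unadjusted p under 0.05, 0 by DESeq2 and by limma-voom), and 1 was lower in females. Lman1, a cargo receptor for glycoproteins, was at 239, 224, 216 and 220.1 CPM in female controls and 133, 146, 141 and 148 CPM in female LKO mice. The separation was complete and Lman1 fell, with a log2 fold change of -0.66 (SE 0.18, edgeR adjusted p = 0.0483). This call was kept only without male CRE- mouse 2, 3 or 4 or male LKO mouse 1, and was lost in the other 12 fits that left out 1 library (adjusted p 0.0347 to 0.132 over the 16). It was also lost with each sex alone, RLE factors, upper-quartile factors, no filter and 10 counts in every library. Its partner Mcfd2 had -0.46 (SE 0.18, edgeR adjusted p = 0.137) and the GTPase gene Sar1b -0.80 (SE 0.26, edgeR adjusted p = 0.0886). In all 6 of 20 genes were lower in females at an unadjusted p under 0.05, against 1530 of 16742, and DESeq2 and limma-voom each called 2. The list's median was 0.06 in males (-0.03 to 0.09 with 1 library left out) and -0.13 in females (-0.20 to -0.08), with 14 of 20 negative.

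For translocation into the ER and N-glycosylation 21 of 22 listed genes were tested, Srpr being absent from the table under that symbol. In both sexes 0 were called by edgeR, DESeq2 and limma-voom, with 2 higher in males and 1 lower in females at an unadjusted p under 0.05. In males 17 of 21 were positive (median 0.20, or 0.09 to 0.24 with 1 library left out) and in females 17 of 21 were negative (median -0.14, or -0.27 to -0.06), and the sex difference had a median of -0.36 with 0 called by these 3 tools and 2 at an unadjusted p under 0.05. Ostc, a subunit of the oligosaccharyltransferase, was 0.97 higher in log2 in female than in male controls (SE 0.22, edgeR adjusted p = 0.048), a call that was not examined under the alternatives.

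In the branch of ATF6 and CREB3 proteins 0 of 7 genes were called in each sex, 0 had an unadjusted p under 0.05, and DESeq2 and limma-voom called 0. Atf6 had a log2 fold change of -0.06 (SE 0.24, edgeR adjusted p = 0.952) in males and 0.09 (SE 0.24, edgeR adjusted p = 0.87) in females. Among 7 tested partners and relatives of IRE1, 0 were called in each sex, and 0 in males and 1 in females had an unadjusted p under 0.05, Tmbim6, an ER membrane protein that restrains IRE1, with -0.54 (SE 0.21, edgeR adjusted p = 0.14) in females. DESeq2 called 0 of these in each sex and limma-voom 0 in males and 1 in females. The medians were 0.03 and 0.01 for the branch of ATF6, and 0.09 and 0.16 for the partners of IRE1, in males and females, and with 1 library left out they were -0.03 to 0.09 and -0.00036 to 0.10, and 0.06 to 0.21 and 0.09 to 0.19. Activation of ATF6 and IRE1 does not pass through their mRNA levels, so these values are levels of transcripts only.

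In the branch of PERK and ATF4 11 of 12 genes were positive in each sex, with medians of 0.74 in males (0.54 to 0.83 with 1 library left out) and 0.90 in females (0.66 to 0.996). The list was chosen with earlier results of these data known, so its counts only describe it. Its difference from the members was not tested. In males 2 of 12 rose, Asns and Trib3, against 0.221% of all genes tested (37 of 16742). In females 3 of 12 rose, Asns, Trib3 and Sesn2, against 2.09% (350 of 16742). At an unadjusted p under 0.05 there were 7 of 12 higher in each sex, against 802 and 2054 of 16742 genes, and DESeq2 called 4 and 5 and limma-voom 4 and 6 in males and females. Asns, which makes asparagine and is a standard target of ATF4, was at 0.527, 0.49, 0.468 and 0.854 CPM in male CRE- mice 1 to 4 and 87.9, 44.04, 29.5 and 26.4 CPM in male LKO mice 1 to 4. In females Asns was at 1.91, 0.467, 0.287 and 0.214 CPM in female CRE- mice 1 to 4 and 20.7, 12.9, 24.8 and 7.58 CPM in female LKO mice 1 to 4. Every LKO mouse was above every control of its sex, and the log2 fold change was 6.32 (SE 0.68, edgeR adjusted p = 0.000425) in males and 4.50 (SE 0.62, edgeR adjusted p = 0.00274) in females. The Asns call was kept in each sex in every alternative that tested it, 24 in all, though the lowest count of Asns in a library was 8. Trib3, a pseudokinase induced by ATF4 and CHOP, was at 9.60, 3.43, 4.68 and 11.8 CPM in male CRE- mice 1 to 4 and 29.5, 25.3, 26.9 and 38.3 CPM in male LKO mice 1 to 4. In females Trib3 was at 4.13, 3.31, 9.31 and 6.58 CPM in female CRE- mice 1 to 4 and 16.4, 20.6, 25.005 and 8.79 CPM in female LKO mice 1 to 4. The male groups did not overlap and the female groups did, through LKO mouse 4, and the log2 fold change was 2.03 (SE 0.41, edgeR adjusted p = 0.0409) and 1.60 (SE 0.40, edgeR adjusted p = 0.0381).

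Sesn2, which restrains mTORC1, rose in females with 1.15 (SE 0.28, edgeR adjusted p = 0.0332), at 4.52 to 6.74 CPM in controls and 6.77 to 19.6 CPM in LKO mice, and in males had 0.91 (SE 0.28, edgeR adjusted p = 0.224). Of the genes not called, Chac1, which degrades glutathione, had 2.23 (SE 0.55, edgeR adjusted p = 0.103) in males and 1.93 (SE 0.55, edgeR adjusted p = 0.055) in females, and Nupr1 had 2.50 (SE 0.54, edgeR adjusted p = 0.0549) and 1.18 (SE 0.52, edgeR adjusted p = 0.198). The switches of the branch were not called: Eif2ak3, which encodes PERK, had 0.34 (SE 0.25, edgeR adjusted p = 0.699) and 0.65 (SE 0.25, edgeR adjusted p = 0.136), Atf4 had 0.66 (SE 0.26, edgeR adjusted p = 0.405) and 0.18 (SE 0.26, edgeR adjusted p = 0.743), and Ddit3, which encodes CHOP, had 0.82 (SE 0.29, edgeR adjusted p = 0.321) and 0.32 (SE 0.29, edgeR adjusted p = 0.564). Atf4 is mainly controlled in translation, which these counts do not measure. Several genes of this list also respond to shortage of amino acids, through other kinases that act on ATF4, and the counts do not tell these inputs apart. None of the sex differences in the list was called by edgeR (0 of 12, 1 at an unadjusted p under 0.05, and 0 by DESeq2 and limma-voom).

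Leaving out single libraries moved these counts. The male count was 1 of 12 without male CRE- mouse 1, 2 or 3, any male LKO mouse or female CRE- mouse 4, where Trib3 lost its call, 3 without male CRE- mouse 4 or female LKO mouse 1, and 4 without female LKO mouse 3. In females it was 1 without female CRE- mouse 2, 3 or 4 or female LKO mouse 1 or 3, 2 without female CRE- mouse 1 or male LKO mouse 2, 3 or 4, and 4 without female LKO mouse 2 or 4. Trib3 had an adjusted p of 0.0238 to 0.133 in males and 0.0305 to 0.133 in females over these fits, and Sesn2 0.0136 to 0.0955 in females. The call of Sesn2 was lost without any female control or female LKO mouse 1 or 3. With each sex alone 3 genes were called in males and 1 in females, where Trib3 and Sesn2 lost their call, and with upper-quartile factors Trib3 lost its male call.

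**Figure D2:**
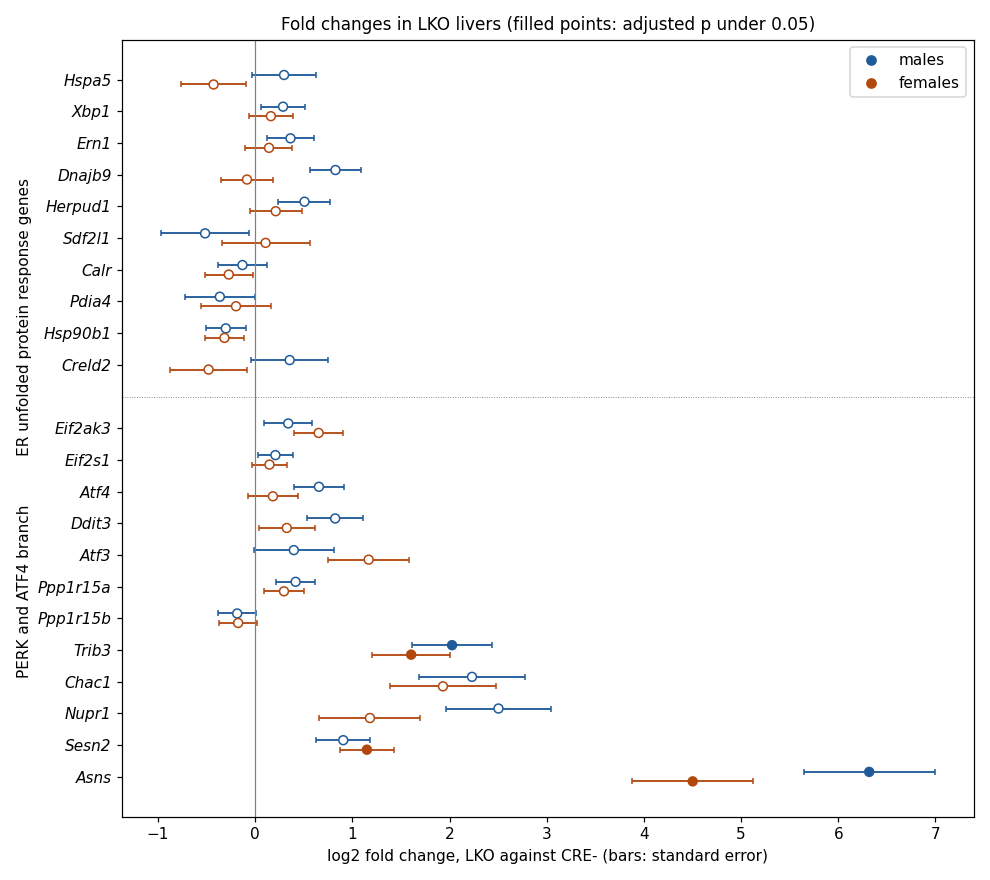
Log2 fold change of LKO against CRE- mice (horizontal axis) with its standard error as bars, for the 10 members and the 12 genes of the branch of PERK and ATF4 (vertical axis), males in blue and females in orange, filled where the adjusted p from edgeR was under 0.05. No member is filled, and all lie between -0.52 and 0.83, while Asns lies at 6.32 in males and 4.50 in females.

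Chaperones of the cytosol, 11 genes of the heat shock response, had 1 gene called in each sex. Hspb1, a small heat shock protein gene, rose in males from 11.6 to 14.9 CPM in controls to 16.4 to 33.7 CPM in LKO mice, with 1.03 (SE 0.20, edgeR adjusted p = 0.0322). Bag3, a co-chaperone of selective autophagy, fell in females from 45.6 to 57.5 CPM in controls to 22.6 to 33.4 CPM in LKO mice, with -0.96 (SE 0.23, edgeR adjusted p = 0.0331). The groups did not overlap for either. The call of Hspb1 was lost without any male control, male LKO mouse 2, 3 or 4 or female CRE- mouse 4 (adjusted p 0.00675 to 0.117 over the 16 fits), and that of Bag3 without female CRE- mouse 2, 3 or 4 or female LKO mouse 1 or 3 (0.0134 to 0.101). With each sex alone Hspb1 also lost its call and Bag3 did not. The median was 0.23 in males (0.12 to 0.41 with 1 library left out) and -0.24 in females (-0.36 to -0.15), and DESeq2 called 1 and 2 and limma-voom 1 and 3. All 11 sex differences were negative, with a median of -0.51 and 5 at an unadjusted p under 0.05 (1119 of 16742 genes were lower), and 0 were called by edgeR, DESeq2 and limma-voom.

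Transcripts of 16 secreted hepatocyte proteins, the load on the ER, had medians of -0.12 in males and -0.28 in females, with 14 of 16 negative in females. The male median was 0.02 without male CRE- mouse 4 and 0.01 and -0.20 without male LKO mouse 1 and 3, and the female median was -0.34 to -0.20 with 1 library left out. None was called by edgeR in either sex (0 of 16), 2 in males and 4 in females had an unadjusted p under 0.05, DESeq2 called 0 and 3, and limma-voom 0 and 2. Alb, the most abundant, had -0.33 (SE 0.24, edgeR adjusted p = 0.698) in males and -0.69 (SE 0.24, edgeR adjusted p = 0.103) in females, where every LKO mouse was below every control. Together they summed to 187630.0, 166880.0, 172130.0 and 204040.0 CPM in female CRE- mice 1 to 4 and 113850.0, 146930.0, 140110.0 and 156030.0 CPM in female LKO mice 1 to 4. Without male LKO mouse 1, female LKO mouse 2 or female LKO mouse 3 the female count was 1 of 16.

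Markers of several cell types were called in females. The 8 hepatocyte markers, led by Alb, summed to 113710.0, 111970.0, 118790.0 and 132350.0 CPM in female CRE- mice 1 to 4 and 50232, 93505, 90363 and 69324 CPM in female LKO mice 1 to 4, with a median log2 fold change of -0.62 (-0.37 without female LKO mouse 1), 0 called by edgeR, 2 at an unadjusted p under 0.05 and 1 called by DESeq2 and by limma-voom. Female LKO mouse 1 was the lowest, and it was also the mouse with the highest Pdia4 and the highest share of mitochondrial reads, 0.605%. The 12 macrophage markers, led by Cd5l, summed to 897, 651, 726 and 1229 CPM in female CRE- mice 1 to 4 and 4075, 1194, 2547 and 1567 CPM in female LKO mice 1 to 4. All 12 were positive, with a median of 1.46, 11 at an unadjusted p under 0.05 and 2 called, Trem2 and Adgre1, where DESeq2 called 9 and limma-voom 10, and female LKO mice 1 and 3 were the highest. Neutrophil markers, 7 of 8 tested and led by S100a9, summed to 37.2, 21.004, 17.05 and 17.2 CPM in female CRE- mice 1 to 4 and 126, 45.4, 64.6 and 553 CPM in female LKO mice 1 to 4. All 7 were positive, all at an unadjusted p under 0.05, with 3 called, Mmp8, Retnlg and Ltf, and LKO mouse 4 stood apart. DESeq2 called 7 and limma-voom 3, which did not include Mmp8 and Ltf. Proliferation markers, led by Tyms, summed to 21.1, 20.3, 16.7 and 32.7 CPM in female CRE- mice 1 to 4 and 112, 27.97, 49.4 and 49.1 CPM in female LKO mice 1 to 4, with 6 of 8 called, all higher: Birc5, Ccnb1, Cdk1, Top2a, Mcm2 and Aurkb (DESeq2 7, limma-voom 6). Endothelial markers, led by Stab2, summed to 222, 282, 277 and 273 CPM in female CRE- mice 1 to 4 and 409, 285, 264 and 338 CPM in female LKO mice 1 to 4, with 2 of 8 called higher, Cdh5 and Vwf, the latter not by limma-voom. This list went both ways, with 5 positive and 3 negative, of which 4 higher and 1 lower had an unadjusted p under 0.05, and DESeq2 called 3 and limma-voom 2. For the sex difference edgeR called 0 in each of these 4 lists, with 4 of 12, 7 of 7, 6 of 8 and 4 of 8 at an unadjusted p under 0.05, DESeq2 called 1, 7, 1 and 1, and limma-voom 0. With 1 library left out these were also 0, except 1 neutrophil marker without male CRE- mouse 2 and 2 without female LKO mouse 2 or 3, and 1 endothelial marker without female LKO mouse 3.

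Those female counts of calls depended on single libraries. Without female CRE- mouse 2, female CRE- mouse 3 or female LKO mouse 1 the count was 0 for macrophage, neutrophil, proliferation and endothelial markers. Without female CRE- mouse 4 it was 0, 0, 2 and 0 in that order, without female CRE- mouse 1 it was 1 for each, and without female LKO mouse 4 it was 2, 0, 3 and 1. Without female LKO mouse 2 it was 7, 7, 6 and 3, and without female LKO mouse 3 it was 1, 6, 4 and 2. For macrophages it was 1 without male CRE- mouse 1 or male LKO mouse 2, 3 or 4, and 3 without male CRE- mouse 2 or 3. For neutrophils it was 5 without male CRE- mouse 2, 3 or 4, and 2 without male CRE- mouse 1 or male LKO mouse 2 or 4. For proliferation it was 3 without male LKO mouse 2. With each sex alone the counts were 1, 0, 0 and 0, and without both libraries rich in acinar markers all were 0. Macrophage markers had 1 call with upper-quartile factors, and neutrophil markers 1 with 10 counts in every library and 5 with no filter. With the replicate block described below the counts were 3, 3, 5 and 2 in the same order, but Adgre1, Mmp8, Ltf and Aurkb lost their calls.

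In plasma and B cells, which are rich in ER chaperones, the markers, led by Ighm, summed to 406, 206, 381 and 372 CPM in female CRE- mice 1 to 4 and 380.4, 505, 1011 and 229 CPM in female LKO mice 1 to 4. All 11 tested were positive in females, with 0 called by edgeR, 2 at an unadjusted p under 0.05, 0 called by DESeq2 and 2 by limma-voom. For T and NK cells (10 markers, led by Nkg7), stellate cells and fibroblasts (8, led by Dcn) and cholangiocytes (7, led by Spp1) 0 were called by edgeR in each sex. In females limma-voom called 2 of T and NK cells and 1 of stellate cells and fibroblasts, DESeq2 called 0, and at an unadjusted p under 0.05 there was 1 of T and NK cells and 0 of the others. In males edgeR called 0 markers of any cell type listed. No marker was at 0 in all libraries. The part of these cells in the values of the members was not tested.

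In males the hepatocyte markers summed to 72173, 99570.0, 104790.0 and 96094 CPM in male CRE- mice 1 to 4 and 65373, 78897, 91520.0 and 79030.0 CPM in male LKO mice 1 to 4, with a median log2 fold change of -0.17 (-0.29 without male CRE- mouse 1, -0.03 with limma-voom), 3 of 8 lower at an unadjusted p under 0.05 and 0 called by edgeR, DESeq2 and limma-voom. The macrophage markers summed to 1108, 540.2, 315 and 1604 CPM in male CRE- mice 1 to 4 and 1404, 754, 830.2 and 727 CPM in male LKO mice 1 to 4. Male LKO mouse 1, the lowest of the male LKO mice for 8 of the 10 members, had the lowest hepatocyte and the highest macrophage sum of its group. Neutrophil markers summed to 83.7, 20.7, 19.8 and 157 CPM in male CRE- mice 1 to 4 and 27.3, 16.9, 13.02 and 12.6 CPM in male LKO mice 1 to 4, all 7 negative, with 0 called by edgeR, 6 at an unadjusted p under 0.05, 2 called by DESeq2 and 0 by limma-voom, and 1 called without male CRE- mouse 2 or female LKO mouse 4. The plasma and B cell markers summed to 449.6, 341, 215 and 593 CPM in male CRE- mice 1 to 4 and 586, 450.0, 524 and 293 CPM in male LKO mice 1 to 4. The part of these cells in the male values was not tested either.

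Pancreatic acinar markers, 10 genes led by Cela1 of which 2 passed the filter, pointed to 2 libraries, with 0 called in each sex by edgeR, DESeq2 and limma-voom and 1 in males and 2 in females lower at an unadjusted p under 0.05. They summed to 7.45, 238, 3.17 and 10.9 CPM in male CRE- mice 1 to 4 and 10.3, 28.8, 17.9 and 14.4 CPM in male LKO mice 1 to 4, and to 8.32, 981, 9.46 and 12.1 CPM in female CRE- mice 1 to 4 and 7.35, 9.50, 12.04 and 12.5 CPM in female LKO mice 1 to 4. Male CRE- mouse 2 and female CRE- mouse 2 stood apart, and male CRE- mouse 2 was also the male control highest for Dnajb9 and Herpud1. It was the lowest male control for Sdf2l1, at 21.4 CPM, and was above the mean of male controls for 4 members and below for 6. Female CRE- mouse 2 was the female control highest for Dnajb9, at 75.5 CPM. It was above the mean of female controls for 3 members and below for 7. Without that mouse the female log2 fold change of Dnajb9 was 0.12, against -0.09 with all libraries. Without both libraries, a choice made after seeing the data, 0 of 10 members were called in each sex, and the male log2 fold change was 1.13 for Dnajb9 (edgeR adjusted p = 0.0805) and 0.65 for Herpud1 (edgeR adjusted p = 0.485). The counts over all genes were then 27 in males and 55 in females, and 1 of 12 genes of the branch of PERK and ATF4, Asns, was called in each sex. Ero1b, Hspb1, Derl2, Lman1 and Bag3 were not called in that fit.

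The promoters of the members were searched for the elements known to bind factors of the response, because some members moved together across mice. RefSeq promoters of build GRCm38.p6, 250 bases before to 50 after the start of a gene, were at hand for all 10 members among 32851 genes. The ER stress element, here CCAAT, 9 bases of any kind and CCACG on either strand, was found in 4 of 10 members, Hspa5, Calr, Hsp90b1 (2 matches) and Creld2, and in 0.119% of all promoters (39). The ER stress element II, here ATTGG, 1 base of any kind and CCACG on either strand, was found in 1 member, Herpud1, and in 0.0365% of all promoters (12). The core of the unfolded protein response element, TGACG followed by TGG on either strand, was found in 0 of 10 members and in 0.676% of all promoters (222). All of these contain CCACG, which alone was found in 9 of 10 members, all but Xbp1, and in 32.8% of all promoters. The members were chosen as genes of the response that these elements are known for, so their shares beside those of all promoters are no test. A match is a description of these windows, not a bound site, and its absence says only that these letters are not in the window. The 5 promoters with a match are shown, 5′ to 3′ along the gene, with the matches in capitals, at chr2:34771840-34772139 (plus strand) for Hspa5, chr8:84846882-84847181 (minus strand) for Calr, chr10:86705395-86705694 (minus strand) for Hsp90b1, chr15:88819396-88819695 (plus strand) for Creld2 and chr8:94386179-94386478 (plus strand) for Herpud1.
Hspa5: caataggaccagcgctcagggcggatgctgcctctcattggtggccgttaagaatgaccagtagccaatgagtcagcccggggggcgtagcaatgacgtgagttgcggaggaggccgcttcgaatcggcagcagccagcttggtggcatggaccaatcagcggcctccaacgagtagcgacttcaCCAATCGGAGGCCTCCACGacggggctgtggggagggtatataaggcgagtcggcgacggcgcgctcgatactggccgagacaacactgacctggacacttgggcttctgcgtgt
Calr: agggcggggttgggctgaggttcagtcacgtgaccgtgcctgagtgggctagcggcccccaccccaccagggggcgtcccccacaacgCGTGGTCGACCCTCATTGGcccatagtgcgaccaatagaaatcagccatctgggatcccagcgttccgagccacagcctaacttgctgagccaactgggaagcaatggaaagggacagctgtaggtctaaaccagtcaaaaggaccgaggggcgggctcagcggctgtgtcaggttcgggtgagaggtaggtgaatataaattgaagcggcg
Hsp90b1: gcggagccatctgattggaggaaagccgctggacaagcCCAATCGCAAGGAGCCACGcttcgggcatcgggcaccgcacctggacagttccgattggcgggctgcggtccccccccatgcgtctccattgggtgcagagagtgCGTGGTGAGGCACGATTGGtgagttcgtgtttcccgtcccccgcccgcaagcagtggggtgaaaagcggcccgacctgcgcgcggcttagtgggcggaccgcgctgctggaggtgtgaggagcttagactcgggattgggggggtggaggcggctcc
Creld2: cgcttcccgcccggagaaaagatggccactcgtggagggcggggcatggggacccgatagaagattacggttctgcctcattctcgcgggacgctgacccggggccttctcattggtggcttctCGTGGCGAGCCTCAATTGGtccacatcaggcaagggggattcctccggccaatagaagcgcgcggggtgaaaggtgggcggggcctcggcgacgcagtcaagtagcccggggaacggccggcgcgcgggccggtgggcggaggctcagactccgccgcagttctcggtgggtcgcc
Herpud1: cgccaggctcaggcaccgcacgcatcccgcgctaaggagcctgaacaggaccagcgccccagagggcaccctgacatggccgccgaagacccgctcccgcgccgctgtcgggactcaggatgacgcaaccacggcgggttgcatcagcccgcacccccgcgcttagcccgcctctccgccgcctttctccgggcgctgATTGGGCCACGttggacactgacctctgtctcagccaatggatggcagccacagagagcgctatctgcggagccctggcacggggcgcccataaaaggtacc
The 4 members with an ER stress element had male log2 fold changes of 0.30 (Hspa5), -0.13 (Calr), -0.30 (Hsp90b1) and 0.35 (Creld2), of both signs, and Herpud1, with element II, had 0.51. In females these were -0.43, -0.27, -0.32 and -0.48, and 0.21 for Herpud1. Over the 16 libraries Herpud1 had an r of -0.54 with Calr and -0.68 with Hsp90b1, which have a match. With Sdf2l1 and Pdia4, which have 0 matches to these elements, it had -0.72 each. Sdf2l1 and Pdia4 had an r of 0.88 with each other, and Hspa5 and Creld2, both with a match, had 0.84. No difference between members with and without a match was tested.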

How the data were processed

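STAR 2.7.1a (build GRCm39) and featureCounts of Subread 2.0.6, stranded, were used by the authors to align reads and count them per gene, and the deposited values are these raw counts, in which, by the options given, both reads of a pair may each have been counted. From them TMM-scaled CPM was computed, with a prior count of 2 for log2 CPM. The 16 libraries were fitted together as 4 groups in edgeR 4.0.16 (R 4.3.3) with the quasi-likelihood test, after filterByExpr with a minimum count of 10. Alternatives were DESeq2 1.42.0, limma-voom (limma 3.58.1) with quality weights, each sex alone, other size factors, other filters, a replicate block, each library left out, and, chosen after seeing the data, 2 libraries rich in acinar transcripts left out together. Members and lists were chosen with earlier results of these data known. Besides the members, a pathway list's genes named were at most the 4 with the smallest p in a comparison, its switch genes and the most abundant per length, and 6 genes most alike for Hspa5 and Xbp1. Cell markers that were called were named after their values were seen. Protein sequences and splicing were not examined.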

Additional observations from a re-analysis of the deposited data

Results flagged for a closer look

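Dixon's ratio, the gap of the most distant of 4 libraries divided by their range, was computed for 136 groups of 4 (members, Gcgr, sums of lists and library totals), and 13 groups passed the critical value for 4 values at an error rate of 0.05. By chance about 1 in 20 groups would pass, so several of the 13 may be chance. The values of the report include all 16 libraries, apart from the alternatives, among them the fit without the 2 libraries whose acinar sums are given here.

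In male controls Herpud1 of mouse 2 was at 432 CPM, the others at 282 to 291 CPM (ratio 0.9413). Gcgr of mouse 3 was at 127 CPM, the others at 189.6 to 193 CPM (0.9495). The acinar sum of mouse 2 was 238 CPM, the others 3.17 to 10.9 CPM (0.9672). In male LKO mice Hsp90b1 of mouse 1 was at 512 CPM, the others at 752 to 801 CPM (0.8328). The macrophage sum of mouse 1 was 1404 CPM, the others 727 to 830.2 CPM (0.8473). The mitochondrial share of mouse 3 was 0.296%, the others 0.142% to 0.163% (0.8623).

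In female controls Hsp90b1 of mouse 1 was at 1242 CPM, the others at 873 to 901 CPM (0.9246). The sum for ER to Golgi transport of mouse 3 was 2259.6 CPM, the others 2491 to 2536 CPM (0.8377). The plasma and B cell sum of mouse 2 was 206 CPM, the others 372 to 406 CPM (0.8307). The endothelial sum of mouse 1 was 222 CPM, the others 273 to 282 CPM (0.8539). The acinar sum of mouse 2 was 981 CPM, the others 8.32 to 12.1 CPM (0.9962). The read total of mouse 2 was 56488920, the others 46228166 to 47314223 (0.8942). In female LKO mice the neutrophil sum of mouse 4 was 553 CPM, the others 45.4 to 126 CPM (0.8414). The causes were not tested.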

How the results depend on the processing

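In all comparisons and under every alternative 0 of 10 members were called. Of 970 log2 fold changes of members over the alternatives 931 kept their direction and their side of the threshold and 39 reversed, 1 of 250 in males, 11 of 250 in females, 21 of 240 for the sex difference and 6 of 230 between female and male controls. Of 594 values of other named genes that were called between LKO and CRE- mice, 367 kept the call and 227 lost it, and 175 values of Gcgr in males and of Eif2ak3, Atf4 and Ddit3, not called, stayed so. None of these reversed.

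The count over all genes in males, 76, was 339 with DESeq2, 148 with limma-voom and 27 without both libraries rich in acinar markers, and 26 to 111 with 1 library left out. In females, 710 became 1816 with DESeq2, 1976 with limma-voom, 119 with each sex alone and 55 without the acinar pair, and 87 to 1310 with 1 library left out. Fewer libraries were fitted with each sex alone, without the acinar pair and with 1 library left out, and otherwise the cause was not tested.

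With limma-voom these reversed: Xbp1 between controls (-0.0093), Sdf2l1 in females (-0.21) and between controls (-0.0467), and the sex difference of Pdia4 (-0.38). Without the acinar pair Dnajb9 (0.15) and Sdf2l1 (-0.0318) reversed in females. The sex difference of Hsp90b1 was 0.0104 with DESeq2, 0.0105 with RLE factors, 0.00155 with upper-quartile factors, 0.0188 with 10 counts in every library and 0.00993 without the acinar pair. The cause was not tested.

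With 1 library left out these spanned 0. In males Calr ranged from -0.24 to 0.0452. In females the ranges were -0.21 to 0.12 for Dnajb9, -0.00147 to 0.24 for Ern1, -0.68 to 0.0119 for Pdia4 and -0.23 to 0.34 for Sdf2l1. For the sex difference they were -0.31 to 0.0184 for Calr, -0.13 to 0.12 for Hsp90b1, -0.32 to 0.41 for Pdia4 and -0.23 to 0.0875 for Xbp1. Between controls they were -0.0775 to 0.34 for Sdf2l1 and -0.12 to 0.21 for Xbp1. Other values kept their direction over all alternatives but moved. Among these in males were Ern1 (0.18 to 0.50), Sdf2l1 (-0.94 to -0.26), Pdia4 (-0.61 to -0.17) and Hsp90b1 (-0.37 to -0.17). In females there were Xbp1 (0.0519 to 0.37), Calr (-0.39 to -0.14) and Hsp90b1 (-0.44 to -0.18). The cause was not tested.

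The groups of a sex use the same replicate numbers, and the labels do not say that mice of the same number share anything. Deviations of same-numbered mice correlated at 0.17, 0.17, 0.14 and -0.01 in males and 0.17, 0.10, 0.12 and 0.03 in females, and of the controls male mice 2 (with LKO mouse 4, 0.21) and 4 (with LKO mouse 1, 0.12) and female mice 3 (with LKO mouse 2, 0.24) and 4 (with LKO mouse 1, 0.03) correlated best with another number. With a replicate block 0 members were called (3 in males, 0 in females and 1 for the sex difference at an unadjusted p under 0.05), and the counts over all genes were 67 in males, 1012 in females and 2 for the sex difference. Of the named genes called, Adgre1, Mmp8, Ltf and Aurkb in females were not called with the block. By list, female counts with the block were 1 for secreted proteins (from 0), 2 for ER-associated degradation and for ER to Golgi transport (from 1), 4 for the branch of PERK and ATF4 (from 3), 3 for macrophage (from 2) and 5 for proliferation markers (from 6).

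With 4 mice per group, the log2 fold change of Dnajb9 in males, 0.83 with a standard error of 0.27, was not called. Nor was it called at 1.15 without male CRE- mouse 2. Other members had larger standard errors, such as 0.45 for Sdf2l1 in males. Differences of members of this size, smaller ones and some larger ones may thus be missed. Asns had 8 reads in 1 control library, so its fold changes rest on few control reads.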
